A study of Mus musculus with 24 samples.

Results

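The 4 Ly6 surface protein genes Ly6a, Ly6c1, Ly6c2 and Ly6e were followed in ID8 cells after 3 h with interferon (IFN) epsilon or IFN beta. They were taken by gene symbol, through the RefSeq accession that the array gives each probe, and are 4 of 22911 genes named on the array. All 4 were among the 14425 genes bright enough to be tested, Ly6c1 with 2 probes and the others with 1. ID8 is a mouse ovarian cancer line that arose from ovarian surface epithelial cells in culture, and as a cultured line it was measured without the other cells of a tumour. The cells received recombinant mouse IFN epsilon or recombinant mouse IFN beta, each in doses of 10, 100 and 1000 IU/ml, or phosphate-buffered saline as vehicle (called untreated here). RNA was measured on single-colour Agilent arrays in 3 biological replicates made on separate dates, with 2 arrays for each untreated sample, which were averaged. The arrays of IFN beta at 10 and at 100 IU/ml on the third date carry a label that leaves them out of the submitters' final analysis. They were left out here too, so these groups had 2 samples and the other groups had 3.

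Ly6 proteins are small proteins with a fold of disulphide-bonded loops, and most are held on the outer face of the plasma membrane by a glycosylphosphatidylinositol (GPI) lipid anchor. Ly6a, also called Sca-1, marks mouse blood stem and progenitor cells and activated lymphocytes, and is used as a marker of progenitor-like cells in several mouse epithelia. Ly6c1 and Ly6c2 encode the closely related forms of Ly6C, which is carried by inflammatory monocytes, by some T cells and by endothelium in mice. Ly6e, also called Sca-2 or TSA-1, is found on thymocytes, is the receptor for syncytin-A in the mouse placenta and restricts the entry of coronaviruses. Type I interferons bind the receptor made of Ifnar1 and Ifnar2, which activates the kinases Jak1 and Tyk2. The transcription factor complex ISGF3, which contains Stat2 and Irf9, then binds interferon-stimulated response elements (ISRE). Gamma-activated sites (GAS) are another DNA element of interferon responses.

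All 4 genes lie on chromosome 15 in a cluster of Ly6 genes, in the order Ly6e, Ly6a, Ly6c1 and Ly6c2 in the RefSeq annotation of GRCm38.p6. Promoter sequences were held for Ly6c1 and Ly6c2, which are shown because their probes moved together below. Both run from 250 bases before to 50 bases after a transcript start, on the minus strand, and are RefSeq sequences of GRCm38.p6 at chr15:75048788-75049087 for Ly6c1 and chr15:75111922-75112221 for Ly6c2. Capitals mark the longest run of bases that the pair share.
Ly6c1 promoter: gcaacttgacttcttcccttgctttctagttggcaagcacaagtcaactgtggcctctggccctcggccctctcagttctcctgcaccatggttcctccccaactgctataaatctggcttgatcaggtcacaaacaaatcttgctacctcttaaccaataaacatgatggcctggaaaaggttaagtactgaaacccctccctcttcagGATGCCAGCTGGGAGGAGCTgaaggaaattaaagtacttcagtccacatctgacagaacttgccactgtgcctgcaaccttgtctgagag
Ly6c2 promoter: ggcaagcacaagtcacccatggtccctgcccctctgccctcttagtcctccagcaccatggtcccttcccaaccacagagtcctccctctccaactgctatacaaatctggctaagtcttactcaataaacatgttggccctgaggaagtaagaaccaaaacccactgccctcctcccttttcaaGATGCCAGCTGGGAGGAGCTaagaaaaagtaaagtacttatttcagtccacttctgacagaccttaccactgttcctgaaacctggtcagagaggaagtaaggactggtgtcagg
Over 266 aligned bases the pair were identical at 208 (78.2%), and the longest shared run was 20 bases. The ISRE core, searched on both strands as GAAA, any 2 bases and GAAA, had 0 matches in either window, and 3.44% of the 32851 promoters of the same length held it. GAS, searched on both strands as TTC, any 3 bases and GAA, also had 0 matches, and 8.30% of promoters held it. These counts say only that the letters are not in these windows.

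The 75th percentile of intensity, on which each array was scaled, lay between 643.5 and 1221, and the share of probes well above background between 47.5% and 57.0%. Of 9 markers of ovarian surface epithelium and mesothelium on the array, 8 were well above background on all 6 untreated arrays, namely Krt7, Krt8, Krt18, Krt19, Msln, Upk3b, Wt1 and Cdh1. Ptprc, which marks all leukocytes, Adgre1 and Ccr2 of macrophages and monocytes, S100a8, S100a9 and Mpo of neutrophils, and Cdh5, Tek and Emcn of endothelium were not well above background on any untreated array. Of the same lists Itgam, Csf1r, Cd14, Cd68 and Cd3e of leukocytes and monocytes, Elane of neutrophils and Kdr of endothelium were well above background on all 6 untreated arrays. Pecam1 of endothelium was well above background on 5 of the 6. The summed relative signal of 9 leukocyte and monocyte markers lay between 3.56 and 4.47 in samples at 1000 IU/ml IFN epsilon, between 3.26 and 4.52 at 1000 IU/ml IFN beta and between 3.35 and 4.90 in untreated samples. No marker of any of these lists was called in the comparisons of treated with untreated cells or of the interferons with each other. Of all genes tested, 2.24% were called higher at 1000 IU/ml IFN epsilon. On the third date the sample at 1000 IU/ml IFN beta stood apart from the other samples of its group in all 4 Ly6 genes, and the arrays left out come from the same date.

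Values below are log2 signal relative to the 75th percentile of the array, given in the order of the first, the second and the third date. They compare 1 probe across samples and do not rank the genes by abundance. Changes are log2 fold changes ± standard error from limma, and a gene is called where its p, adjusted by Benjamini and Hochberg over all 14425 genes, is under 0.05.

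Ly6a was close to background without interferon and was brightest at 1000 IU/ml IFN epsilon. It measured -5.10, -5.24 and -4.08 at 10 IU/ml IFN epsilon, -3.71, -3.19 and -2.39 at 100 IU/ml, and -1.44, -1.89 and -1.07 at 1000 IU/ml. With IFN beta it measured -5.15 and -5.47 at 10 IU/ml, -5.46 and -5.53 at 100 IU/ml, and -3.56, -3.28 and -0.43 at 1000 IU/ml. Untreated samples measured -5.61, -5.30 and -5.24, and only 4 of their 6 arrays were well above background. Every sample at 100 or 1000 IU/ml IFN epsilon and at 1000 IU/ml IFN beta was therefore above every untreated sample, while samples at 10 IU/ml of either interferon and at 100 IU/ml IFN beta overlapped them.

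Ly6c1, read from the brighter of its probes, followed the same order of groups at the upper end. It measured -2.84, -3.27 and -3.02 at 10 IU/ml IFN epsilon, -1.97, -2.23 and -1.82 at 100 IU/ml, and -0.32, -0.86 and -0.69 at 1000 IU/ml. With IFN beta it measured -3.71 and -3.35 at 10 IU/ml, -3.06 and -3.60 at 100 IU/ml, and -2.06, -2.29 and 0.23 at 1000 IU/ml. Untreated samples measured -3.20, -3.45 and -3.53. The sample of the third date at 1000 IU/ml IFN beta was the highest of all 19, above the samples at 1000 IU/ml IFN epsilon.

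Ly6c2 had nearly the same values as Ly6c1 in each group. It measured -3.01, -3.35 and -3.05 at 10 IU/ml IFN epsilon, -2.18, -2.32 and -1.62 at 100 IU/ml, and -0.40, -0.85 and -0.69 at 1000 IU/ml. With IFN beta it measured -3.60 and -3.53 at 10 IU/ml, -3.05 and -3.58 at 100 IU/ml, and -2.07, -2.36 and 0.20 at 1000 IU/ml. Untreated samples measured -3.21, -3.69 and -3.74. For both Ly6c genes, all samples at 100 IU/ml IFN epsilon lay above all untreated samples, whereas samples at 100 IU/ml IFN beta overlapped them.

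Ly6e was well above background on all arrays, and its untreated samples differed little from each other. It measured 4.57, 4.60 and 5.22 at 10 IU/ml IFN epsilon, 5.28, 5.46 and 5.76 at 100 IU/ml, and 6.02, 5.86 and 5.81 at 1000 IU/ml. With IFN beta it measured 4.05 and 4.34 at 10 IU/ml, 4.25 and 4.37 at 100 IU/ml, and 5.25, 5.28 and 6.20 at 1000 IU/ml. Untreated samples measured 4.36, 4.40 and 4.36. Ly6e was the gene of the 4 whose samples at 10 IU/ml IFN epsilon all exceeded the untreated ones, and both samples at 10 IU/ml IFN beta were below them.

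**Figure D1:**
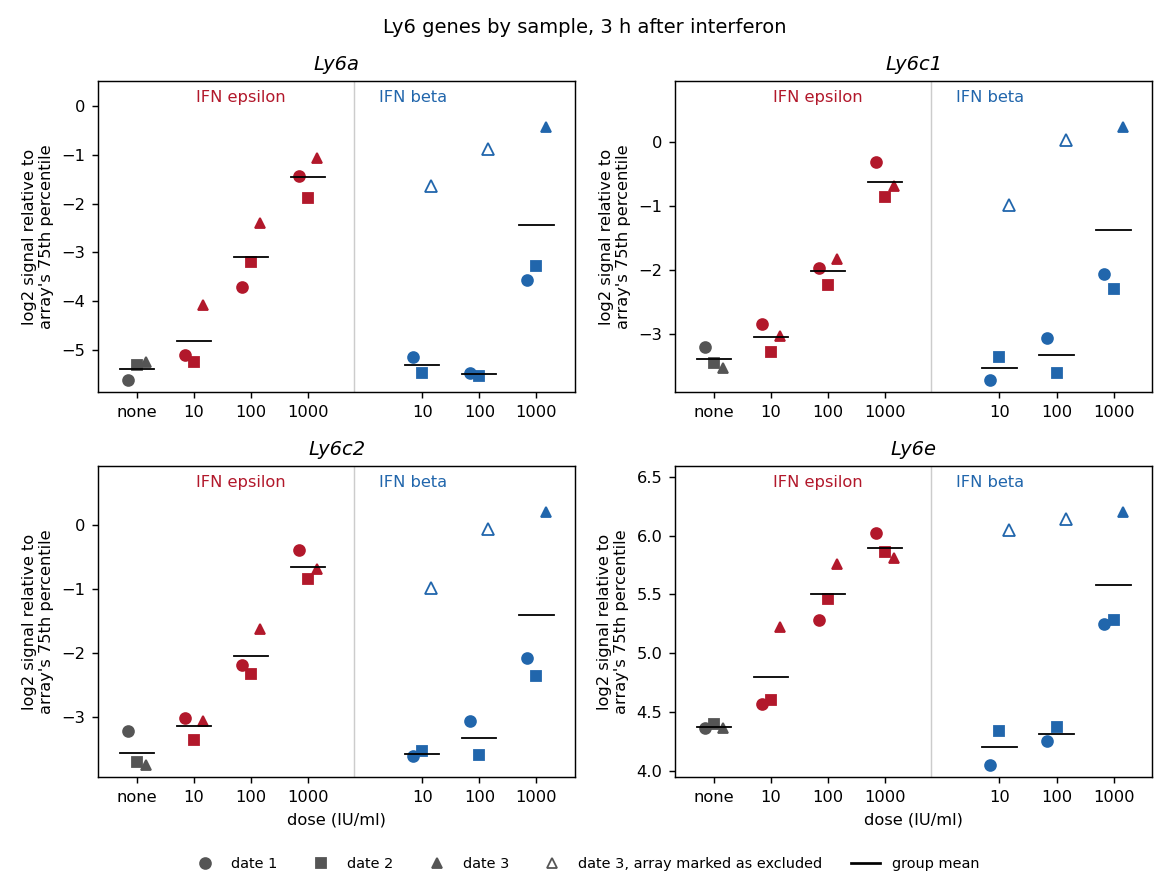
Log2 signal relative to the 75th percentile of the array (vertical axis) of Ly6a, Ly6c1, Ly6c2 and Ly6e in each sample by dose in IU/ml (horizontal axis), with the date as the marker shape, the group mean as a line and the arrays left out as open triangles. Ly6e lies between 5.81 and 6.02 at 1000 IU/ml IFN epsilon, above all untreated samples, and the filled triangle at 1000 IU/ml IFN beta is the highest point of Ly6a, Ly6c1, Ly6c2 and Ly6e in that group.

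The group means put 1000 IU/ml IFN epsilon first for all 4 genes, then 1000 IU/ml IFN beta and then 100 and 10 IU/ml IFN epsilon. For Ly6a they were -1.46 ± 0.41 (SD, n = 3) at 1000 IU/ml IFN epsilon, -2.43 ± 1.73 (n = 3) at 1000 IU/ml IFN beta, -3.10 ± 0.67 (n = 3) at 100 IU/ml IFN epsilon and -5.38 ± 0.20 (n = 3) in untreated cells. The samples at 1000 IU/ml IFN beta overlapped those of both IFN epsilon doses, which did not overlap each other. The place of 1000 IU/ml IFN beta above 100 IU/ml IFN epsilon rested on the sample of the third date in all 4 genes. Without it the means at 1000 IU/ml IFN beta were -3.42 for Ly6a, -2.18 for Ly6c1, -2.22 for Ly6c2 and 5.27 for Ly6e, all below those at 100 IU/ml IFN epsilon. For Ly6e the means were 5.89 ± 0.11 at 1000 IU/ml IFN epsilon, 5.58 ± 0.54 at 1000 IU/ml IFN beta, 5.50 ± 0.24 at 100 IU/ml IFN epsilon, 4.80 ± 0.37 at 10 IU/ml IFN epsilon and 4.37 ± 0.02 in untreated cells (SD, n = 3 each). Below them lay IFN beta at 100 IU/ml, at 4.31 ± 0.09, and at 10 IU/ml, at 4.20 ± 0.20 (n = 2 each), neither beyond its own spread from the untreated mean.

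At 1000 IU/ml, both interferons raised all 4 Ly6 genes over untreated cells. With IFN epsilon the rise was 15.1-fold for Ly6a, 7.48-fold for Ly6c2, 6.84-fold for Ly6c1 and 2.87-fold for Ly6e. With IFN beta it was 7.76-fold for Ly6a, 4.40-fold for Ly6c2, 4.06-fold for Ly6c1 and 2.30-fold for Ly6e. The sizes depended on the background correction, most of all for Ly6a. With normexp in place of the scanner's own subtraction the log2 changes with IFN epsilon were 2.17 for Ly6a, 2.11 for Ly6c1, 2.17 for Ly6c2 and 1.41 for Ly6e, and with IFN beta they were 1.47, 1.49, 1.55 and 1.10, so that Ly6a no longer led. In the authors' deposited log2 values Ly6a changed by 3.09 with IFN epsilon and by 2.18 with IFN beta. In these bulk samples more expressing cells and more RNA per cell cannot be told apart.

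In limma, the log2 changes at 1000 IU/ml IFN epsilon were 3.92 ± 0.62 for Ly6a (adjusted p = 0.0018), 2.77 ± 0.47 for Ly6c1 (adjusted p = 0.00288), 2.90 ± 0.48 for Ly6c2 (adjusted p = 0.00238) and 1.52 ± 0.23 for Ly6e (adjusted p = 0.00126). All 4 genes were called higher, as were 2.24% of all genes tested (323 genes). The median of the 4 changes was 2.84, beside -0.05 over all genes tested. By the size of the rise Ly6a ranked 66 of 14425 genes, Ly6c2 122, Ly6c1 134 and Ly6e 323. In all 4 genes every sample at this dose was above every untreated sample, an order found in 6.19% of genes with complete values.

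Within each date the same direction held. The change of Ly6a was 4.17 on the first date, 3.41 on the second and 4.17 on the third. Within the slides, read from the array barcodes, it was 4.14, 3.76 and 3.86. For Ly6e the changes within slides were 1.53, 1.42 and 1.62, close to each other and to the value over all samples. Leaving out any sample of either group kept all 4 calls. With the median in place of the 75th percentile for scaling, Ly6e changed by 1.14 and was no longer called (limma adjusted p = 0.327). With the 2 arrays left out put back in their groups, the changes were as large but 0 of the 4 were called, with limma adjusted p between 0.16 and 0.248.

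At 1000 IU/ml IFN beta, the log2 changes were 2.96 ± 0.62 for Ly6a (limma adjusted p = 0.0232), 2.02 ± 0.47 for Ly6c1 (adjusted p = 0.0427), 2.14 ± 0.48 for Ly6c2 (adjusted p = 0.0346) and 1.20 ± 0.23 for Ly6e (adjusted p = 0.0123). All 4 were called higher, as were 1.58% of all genes tested (228 genes), and their median change was 2.08, beside -0.04 over all genes. The dates differed in size but not in direction. Ly6a changed by 2.05 on the first date, 2.01 on the second and 4.81 on the third. Ly6e was above all untreated samples on each date too, and the 4 genes shared this order with 5.40% of all genes.

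The size of these changes at 1000 IU/ml IFN beta depended on the sample of the third date. Without it they were 1.96 for Ly6a, 1.22 for Ly6c1, 1.33 for Ly6c2 and 0.89 for Ly6e, and all 4 genes were still called, with limma adjusted p between 0.00899 and 0.0336. Without the untreated sample of the first or of the third date 0 of the 4 were called, and without that of the second date only Ly6e was (limma adjusted p = 0.0483). With the slide as a block, Ly6a changed by 2.83 and was not called (limma adjusted p = 0.0575), and its change was 1.93 within 1 slide and 3.30 within another, while the remaining slide held no sample of this group. Ly6e alone of the 4 was called with quantile normalization, with normexp background correction and in the authors' deposited log2 values, Ly6a alone with median scaling, and Ly6a and Ly6e without a filter on dim probes. With the mean of its probes Ly6c1 changed by 1.61 and was not called (limma adjusted p = 0.0916), and the other 3 were. None was called in a fit to these groups only or with the 2 arrays left out put back, where limma adjusted p lay between 0.338 and 0.862.

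At 100 IU/ml, IFN epsilon raised Ly6e 2.18-fold, while the other 3 genes had fold changes of 4.87 (Ly6a), 2.85 (Ly6c2) and 2.62 (Ly6c1) that did not pass the test over all genes. With normexp background correction the log2 change of Ly6a at this dose was 1.02, beside 2.28 with the scanner's own subtraction. With IFN beta at the same dose all 4 genes were between 0.927-fold and 1.17-fold of untreated cells. The log2 change at 100 IU/ml IFN epsilon was 1.13 ± 0.23 for Ly6e (limma adjusted p = 0.0265), 2.28 ± 0.62 for Ly6a (adjusted p = 0.181), 1.51 ± 0.48 for Ly6c2 (adjusted p = 0.402) and 1.39 ± 0.47 for Ly6c1 (adjusted p = 0.526). Thus 1 of 4 was called, beside 1.05% of all genes, and with the date as a block Ly6a was called too (limma adjusted p = 0.0184), which made 2 of 4 beside 1.48%. In all 4 genes every sample was above all untreated samples, an order found in 3.28% of genes.

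The changes at 100 IU/ml IFN epsilon were positive on each date. Those of Ly6a were 1.90, 2.11 and 2.85 on the first, the second and the third date. The call of Ly6e was lost in limma when any 1 of the untreated samples was left out (adjusted p of 0.11, 0.101 and 0.112 without that of the first, the second and the third date) and without the sample of 100 IU/ml IFN epsilon of the second or of the third date (adjusted p of 0.105 and 0.179). It was also lost with median scaling (1.10, adjusted p = 0.672), without a filter on dim probes (1.13, adjusted p = 0.0578) and with the 2 arrays left out put back (1.13, adjusted p = 1). Its size stayed between 1.00 and 1.24 in the fits that leave out a sample.

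At 100 IU/ml IFN beta, the log2 changes were -0.11 ± 0.70 for Ly6a, 0.06 ± 0.52 for Ly6c1, 0.23 ± 0.53 for Ly6c2 and -0.06 ± 0.26 for Ly6e. The 95% confidence interval ran from -1.60 to 1.38 for Ly6a and from -0.62 to 0.49 for Ly6e, so changes of such sizes could not be told from none. None of the 4 was called by limma, beside 0.111% of all genes, and 0 of the 4 had an unadjusted p under 0.05, beside 1.27% of genes in either direction.

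At 10 IU/ml neither interferon gave a called change in any of the 4. With IFN epsilon the changes were 0.58 ± 0.62 for Ly6a, 0.35 ± 0.47 for Ly6c1, 0.41 ± 0.48 for Ly6c2 and 0.43 ± 0.23 for Ly6e. All 4 estimates were positive, but limma called 0 of 4, beside 0.201% of all genes, and 0 of 4 had an unadjusted p under 0.05, beside 1.05% of genes. Ly6e was higher than untreated in all 3 samples, as 1.78% of genes were, with the sample of the third date at 5.22 and the other two at 4.57 and 4.60.

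With 10 IU/ml IFN beta the changes were 0.07 ± 0.70 for Ly6a, -0.14 ± 0.52 for Ly6c1, -0.02 ± 0.53 for Ly6c2 and -0.18 ± 0.26 for Ly6e. With limma 0 of the 4 and 0 of all genes (0%) were called, and at an unadjusted p under 0.05 it found 0 of the 4 beside 0.333% of genes. These groups set samples of the first 2 dates against untreated samples of 3 dates, and with the date as a block the estimates at 10 IU/ml IFN beta became 0.47 for Ly6a, 0.02 for Ly6c1, 0.17 for Ly6c2 and -0.06 for Ly6e, with 0 called.

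**Figure D2:**
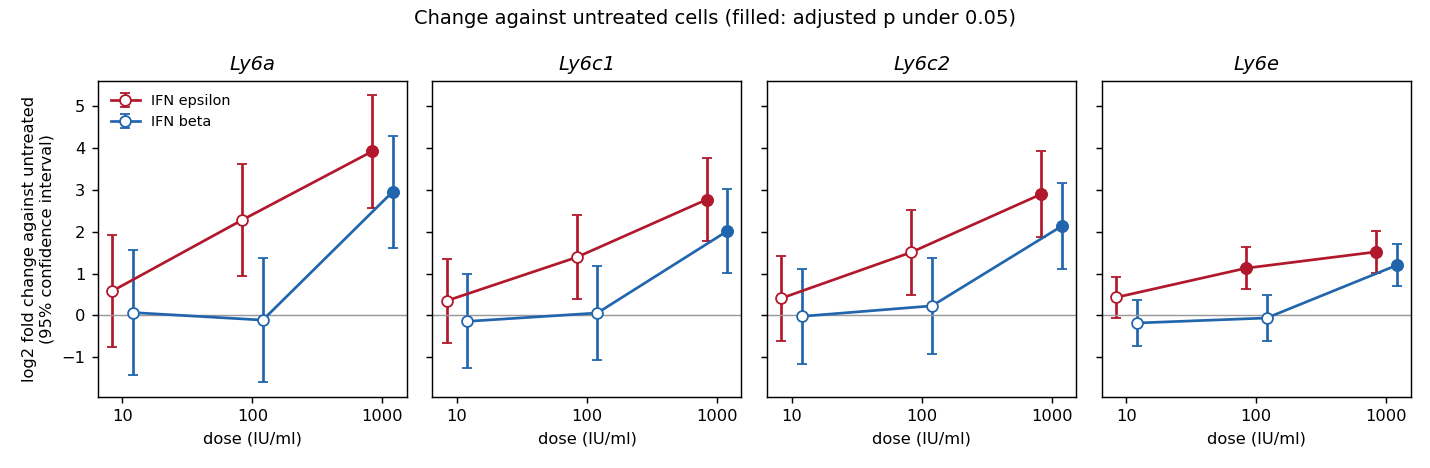
Log2 fold change against untreated cells (vertical axis, with its 95% confidence interval) by dose in IU/ml (horizontal axis) for each of the 4 genes, in red for IFN epsilon and in blue for IFN beta, with filled points for a limma adjusted p under 0.05. All points at 1000 IU/ml are filled, and at 100 IU/ml only Ly6e with IFN epsilon is, at 1.13.

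Set against each other directly, IFN epsilon and IFN beta did not differ in a Ly6 gene beyond the test at any dose, although all 4 estimates at 100 IU/ml were higher with IFN epsilon. At 100 IU/ml the difference, IFN epsilon over IFN beta, was 2.39 ± 0.70 for Ly6a (limma adjusted p = 0.578), 1.32 ± 0.52 for Ly6c1, 1.28 ± 0.53 for Ly6c2 and 1.19 ± 0.26 for Ly6e (adjusted p = 0.128). The 95% confidence intervals ran from 0.90 to 3.89 for Ly6a and from 0.63 to 1.75 for Ly6e. The limma call was met by 0 of 4, beside 0.0901% of all genes, and all 4 had an unadjusted p under 0.05, beside 2.91% of genes. Every IFN epsilon sample was above every IFN beta sample in all 4 genes, as in 5.18% of all genes.

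On the dates that had both interferons at 100 IU/ml, the difference was 1.75 and 2.33 for Ly6a, and 1.03 and 1.09 for Ly6e, on the first and second date. With the date as a block it was 2.00 ± 0.50 for Ly6a (limma adjusted p = 0.225) and 1.07 ± 0.21 for Ly6e (adjusted p = 0.0624). For Ly6c1 it was 1.16 and for Ly6c2 1.09 with this block, which called 0 of the 4, beside 0.367% of all genes. With all samples of the third date left out, an alternative chosen after seeing the data, Ly6a differed by 2.04 (limma adjusted p = 0.00577) and Ly6e by 1.06 (adjusted p = 0.00646), and 2 of 4 were called. The share of all genes called in that fit is not given here. With the 2 arrays left out put back, Ly6a differed by 0.85 and Ly6e by 0.58, and 0 were called.

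At 1000 IU/ml the difference between the interferons was 0.96 ± 0.62 for Ly6a, 0.75 ± 0.47 for Ly6c1, 0.76 ± 0.48 for Ly6c2 and 0.32 ± 0.23 for Ly6e. The 95% confidence interval for Ly6a ran from -0.37 to 2.30 and that for Ly6e from -0.18 to 0.82, so these data allow for Ly6a both no difference and one of several fold. Limma called 0 of the 4 and 0 of all genes (0%), and 0 of the 4 had an unadjusted p under 0.05, beside 1.33% of genes. The dates went opposite ways. Ly6a was higher with IFN epsilon by 2.12 on the first date and 1.40 on the second, but the difference was -0.63 on the third. The same held for Ly6e, with differences of 0.76, 0.58 and -0.39. Without the IFN beta sample of the third date, Ly6c1 differed by 1.55 (limma adjusted p = 0.0166) and Ly6c2 by 1.57 (adjusted p = 0.0281), and 2 of 4 were called. How many of all genes were called in that fit is not given here.

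At 10 IU/ml the differences were 0.50 ± 0.70 for Ly6a, 0.49 ± 0.52 for Ly6c1, 0.43 ± 0.53 for Ly6c2 and 0.60 ± 0.26 for Ly6e. The third date entered them with IFN epsilon only. On the first and second date Ly6a differed by 0.05 and 0.23, and Ly6e by 0.52 and 0.27. With the date as a block the differences were 0.11 for Ly6a, 0.33 for Ly6c1, 0.24 for Ly6c2 and 0.48 for Ly6e. By the limma fit across all genes 0 of 4 were called, beside 0.0971% of all genes. At an unadjusted p under 0.05 there was 1 of 4, Ly6e (limma adjusted p = 1), beside 0.95% of genes.

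**Figure D3:**
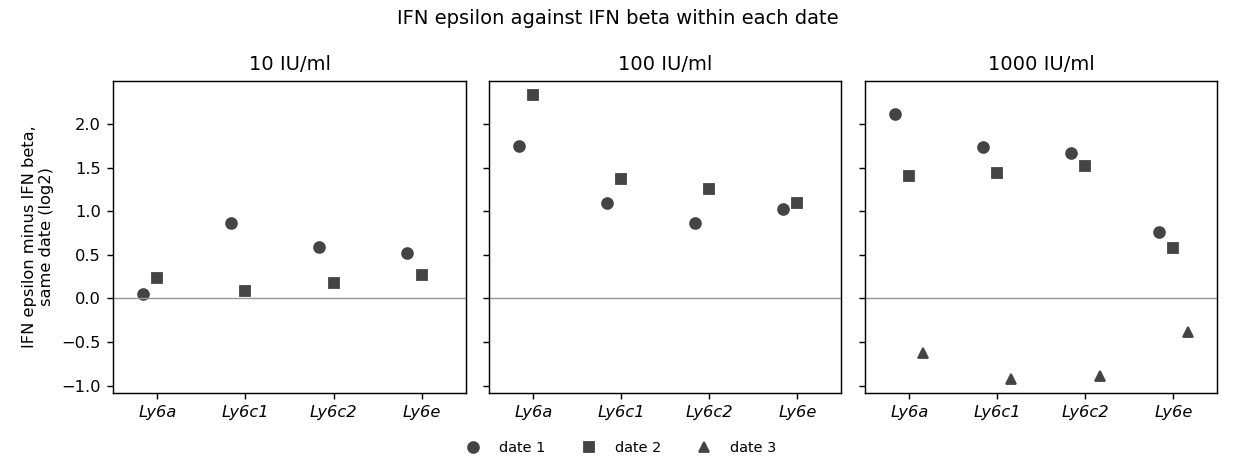
Difference in log2 signal between the IFN epsilon and the IFN beta sample of the same date (vertical axis) for each gene (horizontal axis), with a panel per dose and the date as the marker shape. At 100 IU/ml all points lie above 0, up to 2.33 for Ly6a, and at 1000 IU/ml the third date lies below 0 for all 4 genes.

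Neighbouring doses of the same interferon were compared next. For IFN epsilon, 100 over 10 IU/ml gave 1.71 ± 0.62 for Ly6a, 1.04 ± 0.47 for Ly6c1, 1.10 ± 0.48 for Ly6c2 and 0.70 ± 0.23 for Ly6e. The next step, 1000 over 100 IU/ml, gave 1.63 ± 0.62 for Ly6a, 1.39 ± 0.47 for Ly6c1, 1.39 ± 0.48 for Ly6c2 and 0.40 ± 0.23 for Ly6e. In both steps all samples of the higher dose were above all of the lower dose, as in 2.66% of genes for the lower step and 3.95% for the upper. Limma called 0 of 4 in the lower step, beside 0.0693% of all genes, and 0 of 4 in the upper, beside 0% of all genes. At an unadjusted p under 0.05 there were 4 of 4 in the lower step, beside 2.71% of genes, and 3 of 4 in the upper, Ly6e being the exception, beside 2.99%.

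For IFN beta the lower step was near 0 and the upper one was large. At 100 over 10 IU/ml the changes were -0.18 ± 0.76 for Ly6a, 0.20 ± 0.57 for Ly6c1, 0.25 ± 0.58 for Ly6c2 and 0.11 ± 0.28 for Ly6e. Calls by limma were 0 of 4 and 0% of all genes here, and 0 of 4 had an unadjusted p under 0.05, beside 0.922%. At 1000 over 100 IU/ml the changes were 3.07 ± 0.70 for Ly6a, 1.96 ± 0.52 for Ly6c1, 1.91 ± 0.53 for Ly6c2 and 1.27 ± 0.26 for Ly6e. Only Ly6e was called (limma adjusted p = 0.0494), beside 0.499% of all genes, and with the date as a block Ly6a was called as well (2.67, limma adjusted p = 0.0273), beside 0.88%. The third date entered this step at 1000 IU/ml only. On the first and second date, which had both doses, the step was smaller for each gene. It was 1.90 and 2.24 for Ly6a, 1.00 and 1.31 for Ly6c1, 0.98 and 1.22 for Ly6c2, and 1.00 and 0.91 for Ly6e. Leaving out either sample of 100 IU/ml IFN beta, or the sample of 1000 IU/ml of the second or of the third date, ended the call of Ly6e, with changes of 0.96 to 1.42 and limma adjusted p between 0.0551 and 0.626.

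Whether a dose step differed between the interferons was tested as an interaction. For the lower step it was 1.89 ± 0.99 for Ly6a and 0.58 ± 0.37 for Ly6e, and for the upper step -1.43 ± 0.94 for Ly6a and -0.87 ± 0.35 for Ly6e, where a negative value means a smaller step with IFN epsilon. Limma called 0 of 4 and 0% of all genes in both. At an unadjusted p under 0.05 there were 0 of 4 in the lower step, beside 0.70% of genes, and 1 of 4, Ly6e (limma adjusted p = 1), in the upper, beside 1.86%. With the date as a block the upper interaction was -1.04 for Ly6a and -0.75 for Ly6e. Within the first and second date, the upper step with IFN epsilon was 2.27 and 1.31 for Ly6a, 1.65 and 1.37 for Ly6c1, and 0.74 and 0.40 for Ly6e. With IFN beta it was 1.90 and 2.24 for Ly6a, 1.00 and 1.31 for Ly6c1, and 1.00 and 0.91 for Ly6e.

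Ly6c1 and Ly6c2 could hardly be told apart on this array. Relative to the untreated mean, the brighter Ly6c1 probe and the Ly6c2 probe differed by -0.36 to 0.09 in their log2 change over the 19 samples, with a median size of 0.12. Whether these probes bind RNA of both genes was not tested, since probe sequences were not used here. The other Ly6c1 probe, assigned to a different transcript, was dimmer and well above background on 4 of the 6 untreated arrays. It changed by 2.04 ± 0.42 at 1000 IU/ml IFN epsilon (limma adjusted p = 0.0181), by 1.20 ± 0.42 at 1000 IU/ml IFN beta (adjusted p = 0.514) and by 1.05 ± 0.42 at 100 IU/ml IFN epsilon (adjusted p = 1). It thus kept the direction of the brighter probe at these doses. These adjusted p come from a limma fit to single probes, unlike the calls of genes above. In that fit both Ly6c1 probes were called in the first of these comparisons alone. The brighter probe had limma adjusted p of 0.0032, 0.051 and 0.608 there, in the same order.

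**Figure D4:**
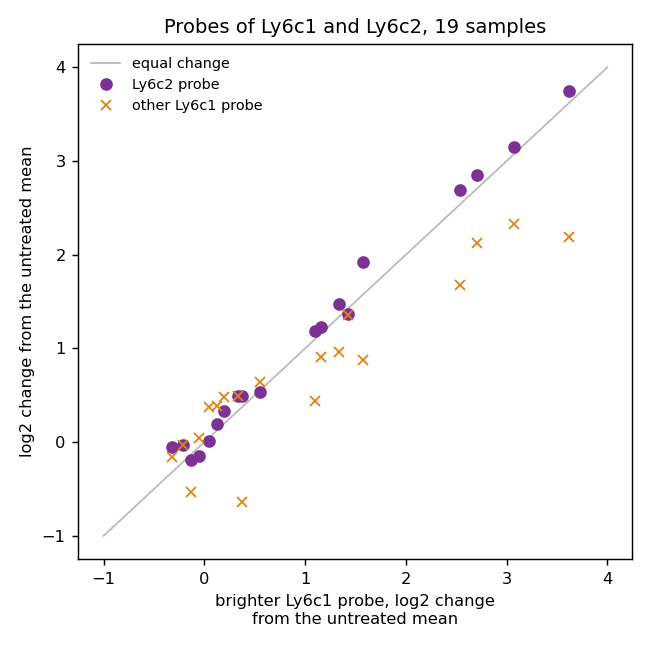
Log2 change from the untreated mean in each of the 19 samples, for the brighter Ly6c1 probe (horizontal axis) against the Ly6c2 probe and the other Ly6c1 probe (vertical axis), with a line of equal change. The Ly6c2 points lie within 0.36 of the line, and the other Ly6c1 probe lies up to 1.44 below it.

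No other gene of the Ly6/uPAR superfamily was called beside these 4 in the fit without a block. Of 43 other members listed, 38 were named on the array and 14 were bright enough to be tested. Limma called 0 of the 14 at any dose of either interferon. Of all genes, 2.24% were called higher at 1000 IU/ml IFN epsilon and 1.58% at 1000 IU/ml IFN beta. At such shares 0 of 14 does not tell these genes from genes at large. Some of them were dim, such as Tex101 and Ly6g6d, well above background on 3 and 2 of the 6 untreated arrays. At 1000 IU/ml IFN epsilon their median change was 0.08, beside -0.05 over all genes, and their changes lay between -0.48 ± 0.35 (Plaur, the urokinase receptor) and 0.32 ± 0.38 (Lypd2). At 1000 IU/ml IFN beta they lay between -0.27 ± 0.32 (Cd59a, an inhibitor of complement) and 0.97 ± 0.60 (Tex101). With the date as a block, Plaur and Cd59a were called lower at 1000 IU/ml IFN epsilon (limma adjusted p = 0.0308 and 0.0298), beside 3.58% of all genes.

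**Figure D5:**
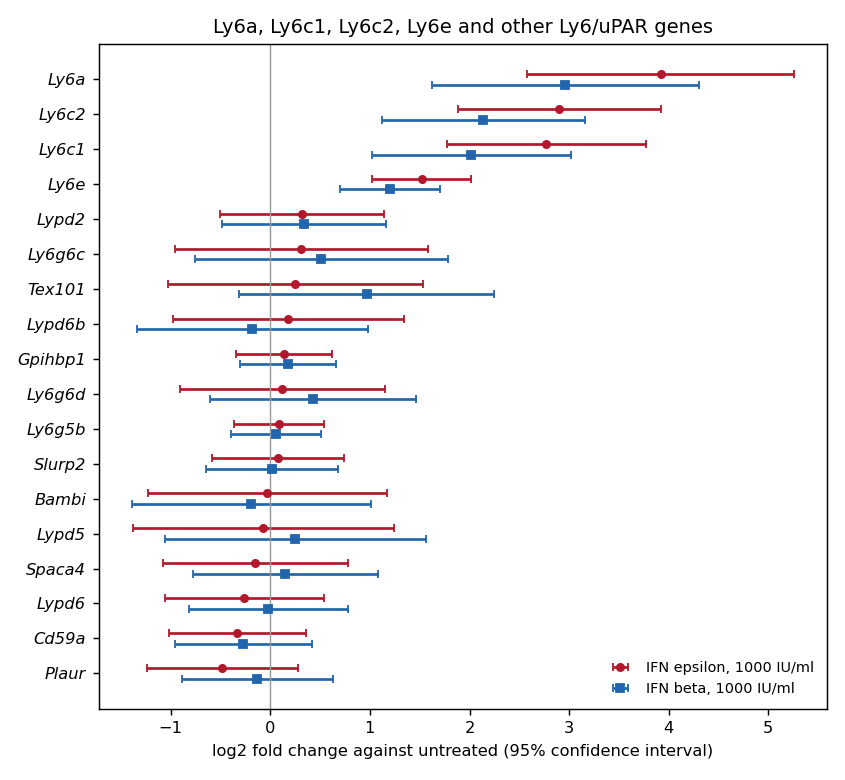
Log2 fold change against untreated cells with its 95% confidence interval (horizontal axis) at 1000 IU/ml IFN epsilon (red) and IFN beta (blue) for Ly6a, Ly6c1, Ly6c2, Ly6e and the 14 other Ly6/uPAR genes tested (vertical axis). The intervals of the 4 Ly6 genes lie above 0, and those of the other genes include 0, from -0.48 for Plaur to 0.97 for Tex101.

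Among the neighbours on chromosome 15, 26 other genes and pseudogenes were listed, 10 of them were named on the array and 1 was bright enough to be tested. Ly6k, Ly6m, Ly6i, Ly6f and Gml, which belong to the family, were not well above background often enough. The gene tested was 9030619P08Rik, a transcribed pseudogene and the last of the neighbours listed beyond Ly6c2. It was well above background on 2 of 3 arrays at 1000 IU/ml of either interferon and on 0 of 6 untreated arrays. It measured -4.70, -5.77 and -2.37 at 1000 IU/ml IFN epsilon, -6.44, -4.93 and -4.50 at 1000 IU/ml IFN beta, and -8.05, -7.15 and -6.84 in untreated samples. Since it was not well above background on untreated arrays, its level there was replaced by a floor. Above this floor its mean was 2.53-fold higher with IFN epsilon and 1.26-fold higher with IFN beta. Without the sample of the third date it was 1.31-fold higher than the floor with IFN epsilon, and with IFN beta its mean lay below the floor. No test is given for it, since it passed the filter on dim probes only through groups where it was high. The floor takes, for each untreated array, the higher of the probe's own signal and the lowest signal of any probe well above background. A probe can be brighter than this and still not be well above background. Ly6a was such a probe on an untreated array of the third date, at -5.15, beside a mean floor of -5.62. These folds are therefore not strict lower limits.

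Genes that make or attach the GPI anchor showed no called change. Of 31 listed, 29 were tested, limma called 0 of them at each dose, and their median change at 1000 IU/ml IFN epsilon was -0.04, beside -0.05 over all genes. The share of all genes called higher at that dose was 2.24%. With the date as a block, Pgap2 (0.59 ± 0.16) and Pigv (0.36 ± 0.14) were called higher at 1000 IU/ml IFN epsilon, beside 4.53% of all genes, and Pigc (-0.37 ± 0.13) and Pigf (-0.30 ± 0.20) were called lower, beside 3.58%. All estimates ± standard error in this paragraph are those of the fit without a block, also where the block made the call. The block called Pgap2 higher at 1000 IU/ml IFN beta as well (0.45 ± 0.16, limma adjusted p = 0.0458), beside 2.79% of all genes. Among 25 other genes of GPI-anchored proteins that were tested, Bst2, which tethers budding viruses to the cell surface, was the one called, beside 2.24%, 1.58% and 1.05% of all genes called higher at 1000 IU/ml IFN epsilon, 1000 IU/ml IFN beta and 100 IU/ml IFN epsilon. It changed by 1.98 ± 0.30 at 1000 IU/ml IFN epsilon (limma adjusted p = 0.00105), by 1.78 ± 0.30 at 1000 IU/ml IFN beta (adjusted p = 0.00346) and by 1.80 ± 0.30 at 100 IU/ml IFN epsilon (adjusted p = 0.00402). With the date as a block, Art3 (1.12 ± 0.30) was called higher at 1000 IU/ml IFN epsilon, beside 4.53% of all genes, and Cd24a (-0.54 ± 0.27) lower, beside 3.58%. The block also called Bst2 higher at 10 IU/ml IFN epsilon (0.98 ± 0.30), beside 0.499% of all genes, and higher with IFN epsilon than with IFN beta at 100 IU/ml (1.18 ± 0.33), beside 0.367%.

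Among genes of the interferon receptor and of ISGF3, Stat2 and Irf9 rose at 1000 IU/ml of both interferons. With IFN epsilon Stat2 changed by 2.91 ± 0.33 and Irf9 by 1.64 ± 0.19, both called by limma, beside 2.24% of all genes called higher. With IFN beta Stat2 changed by 2.81 ± 0.33 and Irf9 by 1.58 ± 0.19, both called too, beside 1.58%. At 10 IU/ml IFN epsilon, where no Ly6 gene was called, Irf9 was (1.23 ± 0.19, limma adjusted p = 0.0104), beside 0.201% of all genes. With the date as a block Stat2 was called there too (1.56 ± 0.33, limma adjusted p = 0.00588), beside 0.499% of all genes. The block also called Irf9 (1.19 ± 0.22) and Stat2 (1.62 ± 0.37) at 100 IU/ml IFN beta, beside 0.291% of all genes. The estimates ± standard error given for these block calls are those of the fit without a block. The receptor genes Ifnar1 (-0.10 ± 0.37) and Ifnar2 (0.09 ± 0.10) and the kinases Jak1 (-0.11 ± 0.14) and Tyk2 (0.05 ± 0.33) were not called at 1000 IU/ml IFN epsilon. Of 9 stem and progenitor markers used beside Ly6a, 7 were tested. Limma called 0 of them at any dose, beside 2.24% of all genes called higher at 1000 IU/ml IFN epsilon.

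The 4 Ly6 genes correlated with each other over the 19 samples at Pearson's r of 0.935 (Ly6c1 and Ly6e) to 0.996 (Ly6c1 and Ly6c2), given as a description since the samples share dates and treatments. The genes most like Ly6a among all tested were Pnp (0.986), a purine phosphorylase, Aida (0.985), Psmb10 (0.984), a subunit of the immunoproteasome, Lck (0.981), a Src-family kinase, and Pttg1 (0.980), the securin. Those most like Ly6c1 were Atp10a (0.978), Parp11 (0.975), Lck (0.974), Pcgf5 (0.969) and Mlkl (0.968), the effector of necroptosis, and the same names led for Ly6c2, with Lck first (0.980). Those most like Ly6e were C130026I21Rik (0.985), Tapbp (0.982), which loads peptides on MHC class I, Gbp2 (0.979) and Ifi47 (0.974), both interferon-inducible GTPases, and Ube2l6 (0.978), which conjugates Isg15. All of them were called higher at 1000 IU/ml IFN epsilon. Since they were chosen by likeness to called genes in the same samples, this adds no support to the calls above.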

How the data were processed

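RNA of ID8 cells, 3 h after interferon or vehicle, was measured on 24 single-colour Agilent arrays on 3 slides, and 22 arrays of 19 biological samples were used. Each spot has an intensity from which, per the file headers, Agilent Feature Extraction 11.0.1.1 had taken off the local background, with no scaling from array to array. The authors also deposited log2 values, used here as an alternative. The submitters' processing notes list R 3.6.1 with limma 3.42.0, in a role not given in the sources used here. The scanner's flags (another kind of value, deposited by the authors) mark spots that are saturated, outliers or well above background.

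Here log2 intensity minus the array's 75th percentile was used, without control spots and outlier spots (79 to 280 per array), and 0 spots were saturated. Spots of a probe and the 2 arrays of an untreated sample were averaged. Of 56605 probes, 32994 matched a RefSeq gene of GRCm38.p6, used for names, neighbours and promoters. A probe was kept if 2 or more samples of 1 group had it well above background, and a gene was read from its brightest probe by mean signal. The functions lmFit and eBayes of limma 3.58.1 (R 4.3.3) were run on all 7 groups at once, leaving 12 residual degrees of freedom, with Benjamini-Hochberg adjustment over 14425 genes. The 95% interval to either side of an estimate had a median of 0.453 where both groups had 3 samples and of 0.507 where one had 2, and the number of arrays limits this precision. The procedure was tested on simulated data with independent noise, which held no effect of date or slide and so did not test for these.

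The replicate number marks a date per the series design text, so it pairs the samples, and deviations from the group mean correlated within a date at a median of 0.48, 0.32 and 0.64. The date was therefore tried as a block, as was the slide. Groups came from the labels. The genes, the lists and the alternatives were chosen with earlier results of these data known. Genes named are the 4 Ly6 genes, list genes that were called (up to 5 per list), the extremes of the Ly6/uPAR list, markers and the 5 genes most correlated with each Ly6 gene. Genes named as called with a block were added after their values were seen. Some genes of the lists are not reported here. Ly6a and Ly6e promoters and all probe sequences were not used here. Software also included the data.table package (version 1.17.8), statmod 1.5.0, Python 3.11.15, Biopython 1.88, pandas 2.3.3, numpy 2.4.6 and matplotlib 3.10.9.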

Additional observations from a re-analysis of the deposited data

Results flagged for a closer look

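The arrays of the third date treated with 10 and with 100 IU/ml IFN beta, which the labels leave out of the final analysis, carried a signal of all 4 Ly6 genes above all untreated arrays. On the array of 100 IU/ml, Ly6a was 4.51 above the untreated mean on the log2 scale, Ly6c1 3.42, Ly6c2 3.48 and Ly6e 1.76. On the array of 10 IU/ml, Ly6a was 3.75 above it, Ly6c1 2.41, Ly6c2 2.57 and Ly6e 1.68. The samples kept in these groups did not stand above untreated cells in this way, with group means of -5.49 and -5.31 for Ly6a at 100 and 10 IU/ml IFN beta against -5.38 in untreated cells. The sample at 1000 IU/ml IFN beta of the same date, which is kept, was also the highest of its group in all 4 genes. Why these arrays differ was not tested.

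The changes of Ly6e at 10 and 100 IU/ml had opposite signs with the 2 interferons, each sample measured from the untreated sample of its date. All IFN epsilon samples were above it and all IFN beta samples were below it. The mean difference of these log2 changes between IFN epsilon and IFN beta was 0.61 at 10 IU/ml and 1.20 at 100 IU/ml. The IFN epsilon mean included the third date, where no IFN beta sample was kept at these doses. On the first and second date the differences were 0.52 and 0.27 at 10 IU/ml, and 1.03 and 1.09 at 100 IU/ml. This pattern of signs was not tested, and the limma difference between the interferons was not called at either dose (adjusted p = 1 and 0.128). The IFN beta changes were small, at -0.30 and -0.06 at 10 IU/ml IFN beta, and -0.11 and -0.03 at 100 IU/ml. With the date as a block the estimate at 100 IU/ml IFN beta was 0.06, so a fall with IFN beta was not shown.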

How the results depend on the processing

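The calls of all 4 Ly6 genes at 1000 IU/ml IFN epsilon held in every alternative run except median scaling, which lost Ly6e, and the return of the 2 arrays left out, which gave 0 called. The other counts of called Ly6 genes moved more. At 100 IU/ml IFN epsilon, beside 1 called in the fit as reported, 2 were called with the date as a replicate block, 4 with the block and the slide, 2 in a fit to the groups compared, 2 without all samples of the third date, and 0 with all 24 arrays, with median scaling or without a filter on dim probes. At 1000 IU/ml IFN beta, beside 4, the count was 1 with median scaling, quantile normalization, normexp background or the authors' deposited values, 3 with the mean of probes or the slide as a block, 2 without a filter on dim probes or without the third date, and 0 in a fit to the groups compared or with all 24 arrays. For IFN epsilon against IFN beta at 100 IU/ml, beside 0, the count was 1 with the block and the slide, quantile normalization or the authors' values and 2 without the third date, and at 1000 IU/ml it was 1 without the third date. With 1 sample left out in turn, the count ranged from 0 to 1 at 100 IU/ml IFN epsilon, from 0 to 4 at 1000 IU/ml IFN beta and from 0 to 2 for the interferons at 1000 IU/ml. For most of these alternatives the share of all genes called is not given here. Whether the calls among all genes moved in the same way is therefore not shown.

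No result that was called changed sign. Estimates that were not called did, most of them near 0. With the replicate block, IFN beta against untreated became 0.024 (Ly6c1) and 0.17 (Ly6c2) at 10 IU/ml and 0.29 (Ly6a) and 0.06 (Ly6e) at 100 IU/ml, and with the block and the slide 0.05 (Ly6c2), 0.45 (Ly6a) and 0.11 (Ly6e). At 100 IU/ml IFN beta, Ly6e became 0.0059 with quantile normalization and 0.013 in the authors' values, and Ly6c1 became -0.06 with normexp and -0.0046 without the third date. With all 24 arrays, IFN beta gave 0.71 (Ly6c1), 0.84 (Ly6c2) and 0.44 (Ly6e) at 10 IU/ml, and 1.43 (Ly6a) and 0.55 (Ly6e) at 100 IU/ml. IFN epsilon against IFN beta at 10 IU/ml then gave -0.72 (Ly6a), -0.36 (Ly6c1), -0.43 (Ly6c2) and -0.012 (Ly6e), the lower IFN beta step 0.13 (Ly6a), and the interaction of the upper step 0.11 (Ly6a), 0.55 (Ly6c1) and 0.57 (Ly6c2). With 1 sample left out, 10 IU/ml IFN beta against untreated ranged from -0.08 to 0.23 (Ly6a), -0.32 to 0.042 (Ly6c1) and -0.12 to 0.15 (Ly6c2), and 100 IU/ml from -0.21 to 0.34 (Ly6c1) and -0.035 to 0.50 (Ly6c2). The lower IFN beta step ranged from -0.07 to 0.47 (Ly6c1), -0.015 to 0.52 (Ly6c2) and -0.027 to 0.25 (Ly6e), and the interaction of the upper step from -1.03 to 0.23 (Ly6c1) and -0.99 to 0.29 (Ly6c2). The cause of these moves was not tested. Slides and dates cross only in part, Ly6a lies near background without interferon, and groups of 2 or 3 samples limit each estimate. The alternative without the third date was chosen after seeing the data, and where a group keeps 1 sample it is assumed to vary like the other groups.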
